A study of Hordeum vulgare with 64 samples.

Results

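Barley roots were examined 1 h after the onset of waterlogging. The 8 root libraries labelled 1 h or control in the waterlogging experiment were taken by their labels, out of 64 libraries in the series. They form 4 groups with 2 replicates each: control and 1 h roots of NN (NasoNijo, a variety described as sensitive to waterlogging) and control and 1 h roots of TX (TX9425, described as tolerant). The control groups are labelled CON, were taken as 0 h and carry no treatment. The plants were seedlings of both varieties that shared a pot, and waterlogging was standing tap water above the soil. The series also holds leaves of the same experiment, later times, and a salt experiment with its own controls. The methods state more replicates than the 2 per group that the labels and values hold, so p-values measure only how far these libraries differ from each other, and that spread may be technical. All 1 h libraries were set against the controls, whose time of sampling the methods do not state. Waterlogging and the time of sampling cannot be told apart.

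When soil is flooded, water fills its pores and oxygen reaches the root far more slowly than through air. Root cells then rely more on glycolysis and fermentation for energy, ethylene builds up around the root, and costly growth processes are held back. In plants generally, part of this response is seen in transcripts early, before any damage is visible. The identifiers in the expression tables were not paired with gene names here, so the response is described by size, level and position, and single genes are given by identifier. Among MADS-box genes, the family of transcription factors that the study is about, only HvMADS14 was read. Its identifier is given in the study's text, and its values do not stand for the family.

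The 8 libraries matched their labels. Of 91 genes seen in every salt root library and in no salt leaf library, 80 to 89 reached 1 FPKM (fragments scaled by the exon length of the gene and the mapped fragments of the library) in each. Of 51 genes seen in TX leaves alone, 39 to 44 reached 0.5 FPKM in a TX root library and at most 1 did so in an NN root library. Of 46 genes seen in NN leaves alone, the numbers were 35 to 37 in NN roots and at most 1 in TX roots. Leaf material was low and alike in both conditions. A set of 118 leaf genes summed to 18.5 to 32.8 FPKM in the controls and 19.7 to 25.0 FPKM at 1 h. In leaves the same genes summed to 10695 to 42058 FPKM. Either list of shared genes described next held 0 of them, which says little, since at such summed levels few could be called. FPKM keep no read totals, and relative depth, read from the steps between low values, was 0.940 to 1.33 times that of replicate 1 of the NN controls in 7 libraries and 0.691 times in replicate 1 of TX at 1 h. That library also held 14.6% of its FPKM in rows with ENSRNA identifiers, against 0.493% to 1.01% in the other 7. The Pearson correlation between replicates across genes was 0.955 in NN controls, 0.980 in NN at 1 h, 0.948 in TX controls and 0.943 in TX at 1 h.

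Within 1 h, 3497 root genes changed in NN (15.9% of the 22022 tested) and 4019 in TX (18.2%), and most of them changed in both. In NN roots 1821 genes rose (8.27%) and 1676 fell (7.61%), and in TX roots 2431 rose (11%) and 1588 fell (7.21%). In both varieties, 1504 genes rose (6.83%) and 1211 fell (5.5%), while limma called 0 genes in opposite directions (0%). At an unadjusted p under 0.05 in both varieties, 18 genes had changes of opposite sign. The balance depended on scaling. With median-ratio scaling 1604 rose and 1643 fell in NN and 1993 and 1713 in TX. With HORVU rows alone at equal totals 1719 rose and 1746 fell in NN and 2352 and 1634 in TX. The direction of the balance thus turned in NN, while in TX more genes rose than fell under each scaling. The shared genes were 82.6% of those that rose in NN and 61.9% of those that rose in TX. For the genes that fell, the shares were 72.3% of NN and 76.3% of TX. A gene was called with limma where its change passed 1 in size on the log2(FPKM + 1) scale and its p, adjusted by Benjamini-Hochberg, was under 0.05. This scale understates the changes of low genes. At an unadjusted p under 0.05 and any size, 8777 genes (39.9%) passed in NN and 9253 (42%) in TX. The counts depended on single libraries in NN: without replicate 2 of NN at 1 h, 1802 genes were called in NN and 1512 in both varieties, and without replicate 2 of the NN controls the counts were 2314 and 1792. Without replicate 1 of TX at 1 h, the library rich in ENSRNA rows, 4036 genes were called in TX and 2556 in both. In bulk roots, fewer cells of a type and less RNA per cell cannot be told apart.

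**Figure D1:**
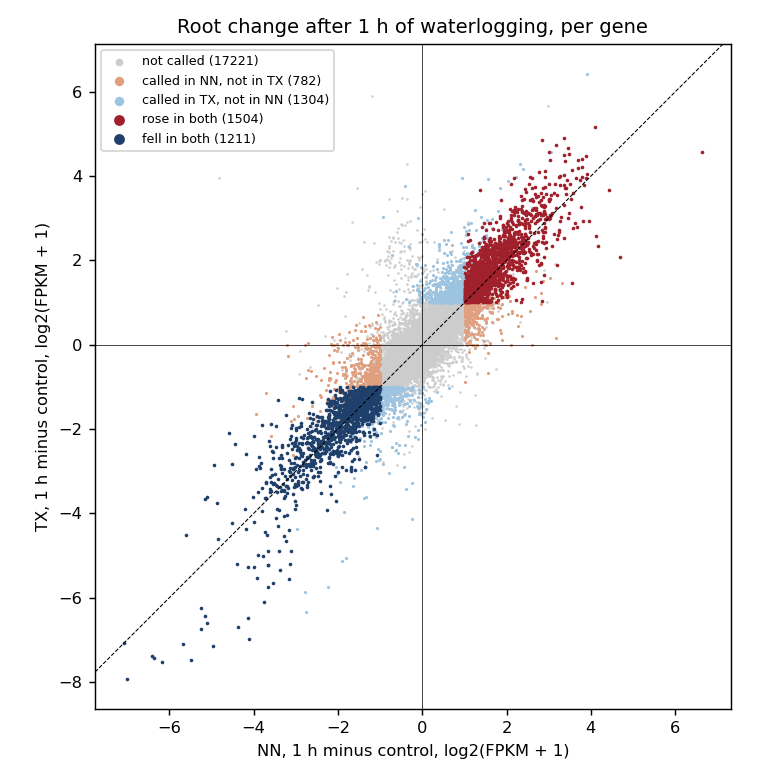
Each point is 1 of the 22022 genes tested, with its 1 h minus control change on the log2(FPKM + 1) scale in NN (x axis) and in TX (y axis). Dark points rose (1504) or fell (1211) in both varieties, pale points were called in 1 variety, grey points in neither, and the dashed line marks equal changes.

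The shared changes were mostly moderate in size. Among the genes that rose in both, the median change was 1.56 in NN and 1.75 in TX on the log2(FPKM + 1) scale, with a 10th to 90th percentile range of 1.12 to 2.63 in NN and 1.18 to 2.94 in TX. Changes beyond 2 were seen for 414 of the 1504 genes in NN and 547 in TX, and changes beyond 3 for 70 and 138. The genes that fell in both had a median change of -1.82 in NN and -1.75 in TX. Of these 1211 genes, 485 in NN and 459 in TX lay beyond -2, and 157 and 131 lay beyond -3. Over all genes tested, the medians were 0.06 in NN and 0.10 in TX. The medians of both lists are set in part by the size limit through which their members were chosen.

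The genes that rose in both lay lower in controls than the genes that fell. The median gene that rose in both lay at 2.69 FPKM in the controls and 12.6 FPKM at 1 h, while the median gene that fell lay at 23.04 FPKM in the controls and 4.62 FPKM at 1 h. Of 1774 genes with a control mean over 50 FPKM, 349 fell in both varieties (19.7%) and 75 rose (4.23%). Between 5 and 50 FPKM, 725 of 8919 fell (8.13%) and 482 rose (5.40%), and between 0.5 and 5 FPKM, 137 of 8344 fell (1.64%) and 736 rose (8.82%). Under 0.5 FPKM, 211 of 2985 rose (7.07%) and 0 fell, since a gene at such a level cannot fall by 1 on this scale. Of those 2985 genes, 2597 reached 0.5 FPKM in fewer than 2 controls and so passed the filter on low values through treated libraries, and 23988 rows of the whole table lay under that level. Their share that rose is therefore set in part by the filter. Level and change were also read from the same controls, so all these shares are a description.

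The shared lists took up a different part of the transcript pool within 1 h. Genes that rose in both made up 5.50% and 3.95% of the summed FPKM in the NN controls (replicates 1 and 2) and 14.8% and 15.4% in NN at 1 h. In TX they made up 3.92% and 3.37% in the controls and 12.8% and 14.5% at 1 h. Genes that fell in both made up 14.5% and 16.4% in NN controls and 4.33% and 2.93% in NN at 1 h, and 21.9% and 16.04% in TX controls and 3.97% and 3.05% in TX at 1 h. All 4 libraries at 1 h were thus above all 4 controls for the first list and below them for the second, the directions by which the genes were chosen. Gene by gene, all 4 libraries at 1 h lay above all 4 controls for 1481 of the 1504 genes, a pattern that 23.3% of all genes tested showed. They lay below them for 1174 of the 1211 genes, against 15.8% of all genes.

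**Figure D2:**
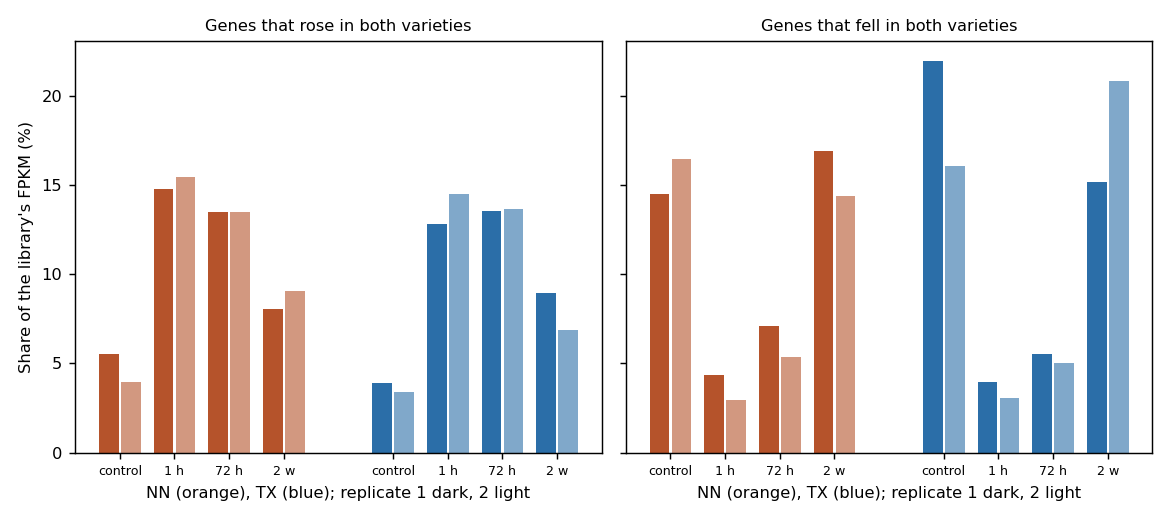
Bars give the share of each root library's summed FPKM (y axis, percent) held by the 1504 genes that rose (left) and the 1211 that fell (right) in both varieties, for each of the 16 waterlogging root libraries by variety and time (x axis). At 1 h the first list reached 12.8% to 15.4% and the second 2.93% to 4.33%.

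The later times, which share the control libraries, showed different courses for the lists. The genes that rose at 1 h had a median change from control of 0.05 in NN and 0.61 in TX at 72 h, and of 0.31 and 0.50 at 2 w. Over all genes the medians were -0.15 and 0 at 72 h and -0.22 and -0.13 at 2 w. Their share of the summed FPKM at 72 h was still 13.5% in both NN libraries and 13.5% and 13.7% in TX, while their median level was 2.78 and 4.26 FPKM in NN and 4.10 and 4.99 FPKM in TX. The genes that fell at 1 h had 72 h medians of -1.61 in NN and -1.84 in TX. At 2 w their medians were -0.38 and -0.27.

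The identifiers described next were chosen by the size of the smaller change of the varieties or by a called difference between them. HORVU5Hr1G086650, with the largest smaller change among the genes that rose in both, lay at 1.4985 and 0 FPKM in NN controls and at 73.2 and 330 FPKM in NN at 1 h. In TX it lay at 4.71 and 0.411 FPKM in controls and at 115 and 38.9 FPKM at 1 h. All 4 libraries at 1 h were far above all 4 controls, with a several-fold spread between replicates. The change on the log2(FPKM + 1) scale was 6.63 in NN (standard error 0.92, limma adjusted p = 0.000731) and 4.58 in TX (standard error 0.92, limma adjusted p = 0.00388). At 72 h it was low again, at 0.159 and 0.692 FPKM in NN and 0.666 and 1.36 FPKM in TX. It was a root transcript, at no more than 0.0562 FPKM in any leaf library of the experiment. The control roots of the salt experiment held it at 94.3 and 49.3 FPKM in NN and 119 and 150 FPKM in TX. Both TX values lay above those of waterlogged TX roots at 1 h. In NN, 94.3 lay between the values of waterlogged roots at 1 h and 49.3 below them. Levels in these tables were normalized separately. Its change in salt roots at 1 h was 0.85 in NN (limma adjusted p = 0.752) and -1.15 in TX (limma adjusted p = 0.187).

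HORVU2Hr1G074770 was next in that order and had tighter replicates. It lay at 1.36 and 5.48 FPKM in NN controls and 70.5 and 61.8 FPKM in NN at 1 h, a mean of 66.1 ± 6.19 FPKM (SD, n = 2) and 19.3-fold above control. In TX it lay at 3.03 and 2.24 FPKM in controls and 134 and 122 FPKM at 1 h, a mean of 128 ± 8.29 FPKM (SD, n = 2) and 48.6-fold above control. The groups did not overlap in either variety. The change was 4.10 in NN (standard error 0.62, limma adjusted p = 0.00109) and 5.16 in TX (standard error 0.62, limma adjusted p = 0.000258). At 72 h it was between its control and 1 h levels, at 15.5 and 32.8 FPKM in NN and 18.7 and 38.1 FPKM in TX. Leaves held it at 66.3 to 409 FPKM at every time. In salt roots at 1 h, which use other libraries, its change was 4.74 in TX (limma adjusted p = 0.00661) and 3.44 in NN, which missed the threshold (limma adjusted p = 0.0543).

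HORVU3Hr1G086500 had the largest smaller change among the genes that fell in both. It lay at 190 and 233 FPKM in NN controls and at 0.702 and 0.431 FPKM in NN at 1 h, a mean 373-fold lower. In TX it lay at 1313 and 514 FPKM in controls and at 3.64 and 7.08 FPKM at 1 h, a mean 170-fold lower. The groups were far apart in both varieties. The change was -7.08 in NN (standard error 1.02, limma adjusted p = 0.000886) and -7.07 in TX (standard error 1.02, limma adjusted p = 0.000675). The TX minus NN difference was 0.01 (standard error 1.44, limma adjusted p = 1). By 2 w it lay at 704 and 531 FPKM in NN and 833 and 1218 FPKM in TX. Its change in salt roots at 1 h was 1.77 in NN (limma adjusted p = 0.956) and -3.34 in TX (limma adjusted p = 0.259), neither called.

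**Figure D3:**
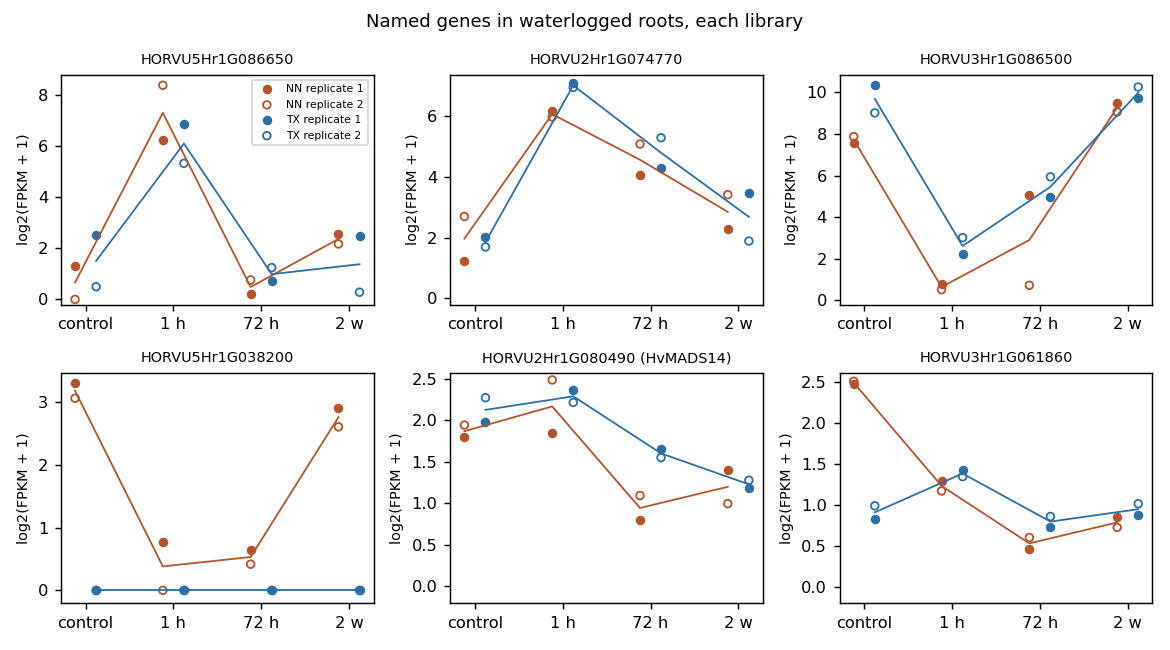
Each panel gives log2(FPKM + 1) (y axis) of 1 gene in the 16 waterlogging root libraries by time (x axis), with replicate 1 filled, replicate 2 open and lines through the group means. HORVU5Hr1G086650 and HORVU2Hr1G074770 peak at 1 h, HORVU3Hr1G086500 has its lowest mean at 1 h in both varieties, and HORVU5Hr1G038200 is listed at 0 in all 8 TX libraries.

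HORVU3Hr1G086500 was 1 of 10 genes that lay at or above 100 FPKM in all 4 controls and at or below 10 FPKM in all 4 libraries at 1 h, limits set after the values were seen. Altogether 494 genes lay at or above 100 FPKM in all 4 controls, of which 106 fell and 17 rose in both varieties. The median of the 10 genes was 323 and 230 FPKM in NN controls and 5.60 and 3.28 FPKM in NN at 1 h. In TX it was 1340 and 459 FPKM in controls and 3.47 and 7.21 FPKM at 1 h. At 2 w it was back at 712 and 617 FPKM in NN and 783 and 1209 FPKM in TX. Their identifiers place 7 of them on chromosome 3 and 1 on chromosome 2, and near-identical copies among them could share reads, so their separate values are uncertain.

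The same 10 genes were low at 1 h in leaves too. Their median in leaves was 177 and 70.2 FPKM in NN controls and 1.25 and 0.643 FPKM in NN at 1 h, and 198 and 30.7 FPKM in TX controls and 1.36 and 4.32 FPKM in TX at 1 h. For HORVU3Hr1G086500 the change in leaves was -5.32 in NN (limma adjusted p = 0.0119) and -4.91 in TX (limma adjusted p = 0.0150). Roots of the salt experiment had never been waterlogged. In its control roots, the median of the 10 genes was 3.45 and 2.33 FPKM in NN and 19.4 and 39.4 FPKM in TX. These medians lay below every median of the waterlogging control roots. Single genes spanned 0.133 to 17.6 FPKM in those NN controls and 5.13 to 533 FPKM in those TX controls, so not all were low in TX. After 1 h of salt the median was 5.05 and 10.5 FPKM in NN and 5.93 and 4.66 FPKM in TX.

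**Figure D4:**
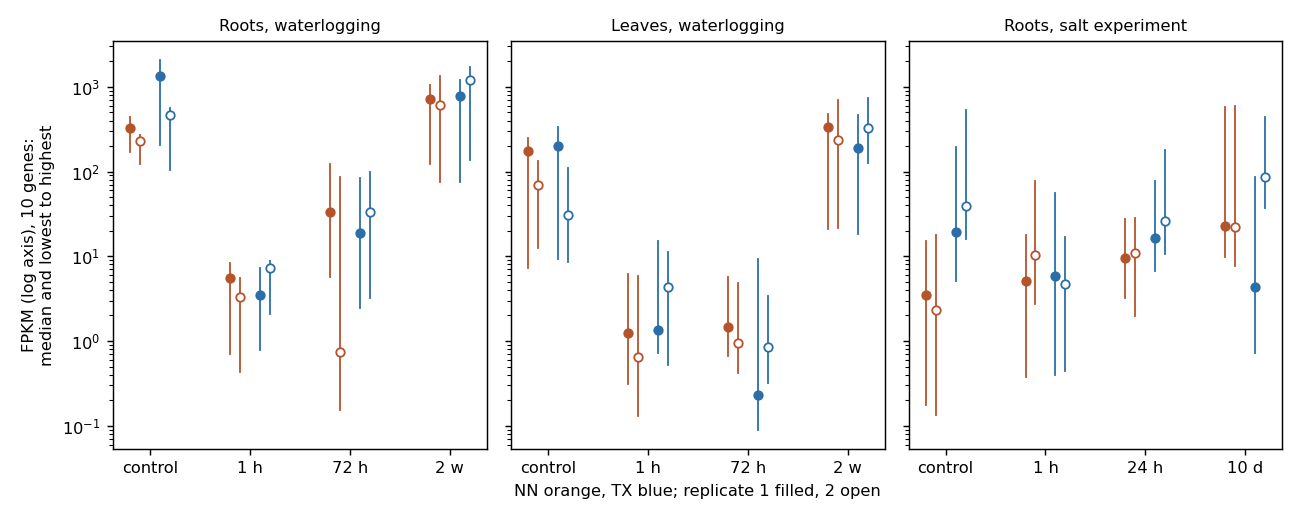
Points give the median and lines the lowest to highest FPKM (y axis, log scale) of the 10 genes in each library, by time (x axis), for waterlogging roots, waterlogging leaves and salt roots. The median is 230 to 1340 FPKM in the waterlogging control roots, 3.28 to 7.21 FPKM at 1 h and 2.33 to 39.4 FPKM in the salt control roots.

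Of 18009 rows of the whole table at or below 0.1 FPKM in all 4 controls, 7 reached 1 FPKM in all 4 libraries at 1 h, where they spanned 1.07 to 8.39 FPKM. At the other end, 110 of the genes that rose in both were at or above 100 FPKM in all 4 libraries at 1 h. No gene went from at most 20 FPKM in every control to at least 100 FPKM in every library at 1 h, a count of 0.

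The sizes of the changes in NN and TX were closely related. Across the 22022 genes the Pearson correlation between the NN and TX changes was 0.865, and it was 0.908 over the 12382 genes whose mean log2(FPKM + 1) passed 2. The compared libraries are separate, but same-numbered NN and TX replicates deviated together, with a correlation of 0.45 in controls and 0.48 at 1 h. Genes are not independent replicates, and all libraries come from 1 experiment. Among the genes that rose in both, the change was larger in TX for 1043 (69.3%), and the median TX minus NN difference was 0.17. Over all genes the change was larger in size in TX for 54.5%, and the median TX minus NN difference was 0.05. Among those that fell in both, the change was larger in TX for 559 (46.2%), with a median difference of 0.03. The offset between varieties depended on scaling. With median-ratio scaling the median changes over all genes were 0.021 in NN and 0.016 in TX, beside 0.058 and 0.096 without it. The shares given here were not computed with that scaling.

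Genes called in 1 variety and not in the other mostly had a change of the same sign in both. Of 317 genes called as risen in NN and not in TX, 304 also had a positive change in TX, where the median was 0.78 and 56.4% of all genes were positive. Of 927 genes called as risen in TX and not in NN, 894 had a positive change in NN, with a median of 0.80, where 54.0% of all genes were positive. In NN, 349 of these 927 had a limma adjusted p under 0.05 at any size of change, as did 27.2% of all genes (30.9% in TX). The 465 genes called as fallen in NN and not in TX had a TX median of -0.75, and the 377 called as fallen in TX and not in NN had an NN median of -0.84. Apart from 2 genes, the difference between varieties did not pass the test for any of these, and a gene called in 1 variety is not shown to respond there alone.

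The test of the difference itself called 2 genes (0.00908% of 22022), both with a more positive change in TX. At an unadjusted p under 0.05, 977 genes passed (4.44%). HORVU5Hr1G038200 lay at 8.83 and 7.33 FPKM in NN controls and 0.696 and 0 FPKM in NN at 1 h, a change of -2.80 (standard error 0.22, limma adjusted p = 4.77e-05). It is listed at 0 in all 8 TX root libraries, so its difference of 2.80 (standard error 0.31, limma adjusted p = 0.0344) is the NN change set against a gene with no value in TX. HORVU3Hr1G061860, the other of the 2 and named after its values were seen, lay at 4.55 and 4.69 FPKM in NN controls and 1.45 and 1.25 FPKM in NN at 1 h, a change of -1.26 (standard error 0.14, limma adjusted p = 0.000278). In TX it lay at 0.773 and 0.981 FPKM in controls and 1.67 and 1.54 FPKM at 1 h, a change of 0.47 that was under the size limit (standard error 0.14, limma adjusted p = 0.0279). The varieties differed in the controls and lay close together at 1 h, and the difference of the changes was 1.74 (standard error 0.20, limma adjusted p = 0.0344). Without replicate 1 of TX at 1 h the limma adjusted p was 0.103 for HORVU5Hr1G038200 and 0.134 for HORVU3Hr1G061860, and without replicate 1 of the TX controls it was 0.0650 for both. For HORVU3Hr1G061860 it was also 0.0828 and 0.176 without replicates 1 and 2 of NN at 1 h, and 0.0575 without replicate 2 of the NN controls.

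The count of differences moved with single libraries. Without replicate 2 of TX at 1 h, which leaves the ENSRNA-rich replicate 1 alone in its group, 168 genes were called, and 111 of them were ENSRNA rows, which are 530 of the 22022 rows tested. Without replicate 2 of the TX controls 15 were called, 4 more positive and 11 more negative in TX, and without replicate 1 of the TX controls 2 were called, both more negative in TX, so the direction was not stable either. Without replicates 1 and 2 of the NN controls in turn, 10 and 5 were called, and without replicate 1 of TX at 1 h 1. In all libraries, 26 genes had an adjusted p under 0.1 for the difference (limma). Of these, 18 were near 0 (under 0.5 FPKM) in 1 variety, as were 2050 of all genes tested.

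The varieties also differed in level. In controls 252 genes were higher in TX than in NN (1.14%) and 382 lower (1.73%), and at 1 h 239 were higher (1.09%) and 274 lower (1.24%). Of these, 166 were higher and 184 lower in both conditions, which is 65.9% and 48.2% of the control lists and 69.5% and 67.2% of the 1 h lists. The comparisons share no library. Of the 166 and 184 genes, 8 and 8 belonged to the genes that rose or fell in both varieties. Those lists make up 12.3% of all genes tested. Of the control lists, 145 and 158 genes were under 0.5 FPKM in all 4 control and 1 h libraries of 1 variety, where a change beyond 1 is not possible on this scale.

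HvMADS14 (HORVU2Hr1G080490) showed no called change at 1 h. It lay at 2.46 and 2.84 FPKM in NN controls and 2.60 and 4.60 FPKM in NN at 1 h, and at 2.94 and 3.82 FPKM in TX controls and 4.14 and 3.64 FPKM in TX at 1 h. In TX the groups overlapped, and in NN only replicate 2 at 1 h stood clear of the controls. The change was 0.30 in NN (standard error 0.23, limma adjusted p = 0.377) and 0.16 in TX (standard error 0.23, limma adjusted p = 0.641). The TX minus NN difference was -0.14 (standard error 0.33, limma adjusted p = 1), so at this spread a change of moderate size could be missed.

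The shared genes were spread over all chromosomes. By the chromosome digit of the identifier, 6.10% (chromosome 7) to 8.11% (chromosome 1) of the tested genes rose in both, and 4.98% (chromosome 6) to 6.57% (chromosome 1) fell. Neighbours in identifier order often shared a list. Of 1457 placed genes that rose, 295 had an adjacent tested gene that also rose (20.2%), while 13.4% of all placed genes had such a neighbour. Of 1162 that fell, 243 had an adjacent gene that fell (20.9%), against 10.8% of all. Runs of 3 or more held 57 of the genes that rose and 63 of those that fell. The longest run that fell was 6 genes on chromosome 2, with a median change of -2.39 in NN and -2.27 in TX. A run of 5 that rose on chromosome 1 had medians of 2.91 and 3.94. Adjacent genes can be near-identical copies that share reads, so these runs are uncertain as separate events.

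The same genes tended to move the same way in other libraries sampled at 1 h and set against controls. In leaves of the waterlogged plants, the genes that rose in both root comparisons had a median change of 0.44 in NN and 0.76 in TX, beside -0.11 and 0.07 over all genes. Their change was above 0 for 992 and 1090 of the 1240 measured there, beside 39.6% and 55.4% of all leaf genes, but 1 gene passed the test in each variety, beside 0.0608% and 0.0748% of all leaf genes. The genes that fell in roots had leaf medians of -1.08 in NN and -0.88 in TX, and 94 (8.41%) and 77 (6.89%) of the 1118 measured were called lower, against 0.683% and 0.641% of all leaf genes. ENSRNA rows held 11.5% and 5.93% of the FPKM in TX leaves at 1 h and 1.45% and 0.610% in their controls, and their part in the TX leaf values was not tested.

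In salt roots at 1 h, the medians of both lists also had the sign of the waterlogging change. The genes that rose had medians of 0.29 in NN and 0.78 in TX (all genes -0.02 and 0.09), and those that fell had medians of -0.40 and -0.74. In TX, 44 of 1500 were called higher (2.93%, against 0.82% of all) and 64 of 1209 lower (5.29%, against 0.977%). In NN limma called 0 of either list, and 5 genes (0.0224%) higher and 7 (0.0314%) lower in all. At an unadjusted p under 0.05, 142 of the 1500 were higher in NN (9.47%, against 2.3% of all) and 150 of the 1209 lower (12.4%, against 4.83%). The controls of the experiments were set side by side. The median of the genes that rose was 1.74 and 1.66 on the log2(FPKM + 1) scale in TX waterlogging controls and 2.72 and 2.01 in TX salt controls. For the genes that fell it was 4.56 and 4.36 in TX waterlogging controls and 4.11 and 4.62 in TX salt controls, which overlap. In NN the controls overlapped for neither list. The median of the genes that rose was 2.18 and 1.77 in NN waterlogging controls and 2.99963 and 2.85 in NN salt controls. For the genes that fell it was 4.39 and 4.62 in NN waterlogging controls and 3.76 and 3.86 in NN salt controls. The part of these control differences in the salt changes was not tested. The genes were chosen with the waterlogging controls and not with the salt controls, and the tables were normalized separately.

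**Figure D5:**
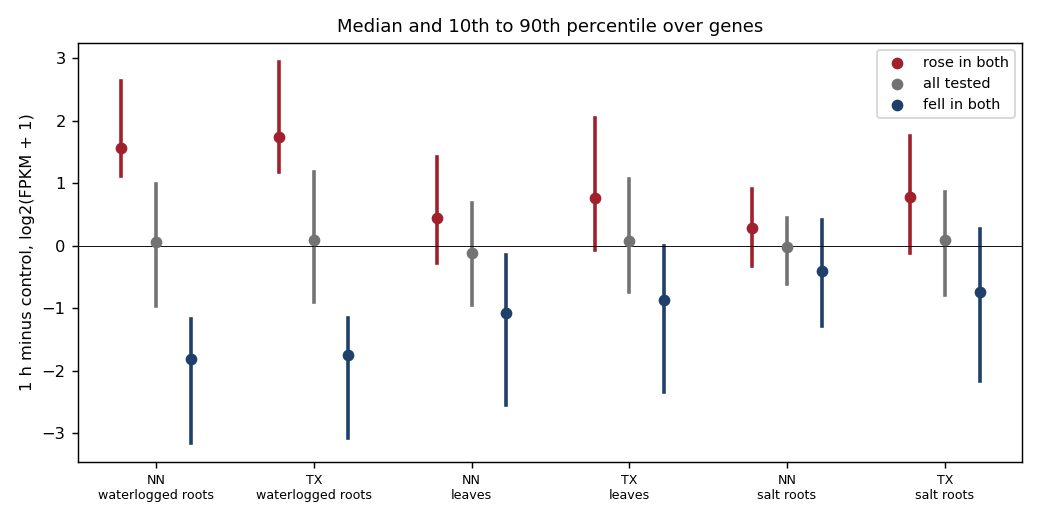
Points give the median and lines the 10th to 90th percentile over genes of the 1 h minus control change on the log2(FPKM + 1) scale (y axis), for the genes that rose or fell in both waterlogged root comparisons and for all genes tested. The medians of the genes that fell are -1.82 and -1.75 in the roots that chose them, -1.08 and -0.88 in leaves and -0.40 and -0.74 in salt roots.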

How the data were processed

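RNA was measured in roots and leaves of 2 barley varieties after oligo(dT) selection, with a kit that marks strand. For each experiment the authors deposited a table of FPKM, fragments scaled by exon length and mapped fragments. HISAT, HISAT2 and featureCounts 1.5.0 are named in the submitters' processing notes, with a genome build and annotation not given in the sources used here. The waterlogging table holds 43050 rows (39734 HORVU, 3121 ENSRNA and 195 other identifiers), and 82 other columns of values in its workbook were not used. HvMADS14 was taken by the identifier in the study's text. The RefSeq gene table used here held none of the identifiers.

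The 16 waterlogging root libraries were fitted in limma 3.58.1 (R 4.3.3) on log2(FPKM + 1), as 8 group means with a trended empirical Bayes spread, for rows that reached 0.5 FPKM in 2 or more libraries. Salt roots and waterlogging leaves were each fitted apart in the same way. Calls needed a p under 0.05 after Benjamini-Hochberg adjustment and a change of over 1 on the log2 scale. Named genes were the 2 identifiers that rose with the largest smaller change of the varieties, the 1 that fell with the largest, the 1 that fell with a called variety difference, and HvMADS14. Members and lists were chosen with earlier results of these data known. The comparison of TX with NN at 1 h and the crossed pairing were added after seeing the data. Alternatives were a pseudocount of 0.1, no low-value filter, median-ratio scaling, HORVU rows alone with equal totals, the 8 libraries alone, a replicate block, the study's printed thresholds and leaving out each replicate. Tables were handled and plotted in Python 3.11.15 (numpy 2.4.6, pandas 2.3.3, matplotlib 3.10.9).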

Additional observations from a re-analysis of the deposited data

Results flagged for a closer look

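The change at 1 h differed between the varieties, by a test of the difference itself, for 2 genes. For HORVU5Hr1G038200 the TX minus NN difference of the log2 change was 2.80, with values in NN alone and a listing at 0 in every TX root library. For HORVU3Hr1G061860 the difference was 1.74, with levels that were apart in the controls and close at 1 h. Both calls were lost with the 8 control and 1 h libraries alone (limma adjusted p = 0.551 for each). They were also lost with a pseudocount of 0.1 (limma adjusted p = 0.400 for HORVU5Hr1G038200 and 0.183 for HORVU3Hr1G061860). Each call was lost in some of the other alternatives that were run and kept in others.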

How the results depend on the processing

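The counts of genes called in NN, in TX and in both varieties stayed within 1.5 times under each alternative other than leaving out a library. Leaving out each replicate in turn gave 1802 to 4088 genes in NN, 2944 to 4036 in TX, 1512 to 2836 in both, and 1 to 168 for the difference between varieties. An arm left with 1 library was assumed to vary like the other groups. The difference count was 0 with the 8 libraries alone (682 at an unadjusted p under 0.05 in limma), 0 with a pseudocount of 0.1 (805), 15 without the filter on low values, and 1065 with the thresholds as the study prints them (unadjusted p under 0.5, log2 change beyond 1). The cause of these shifts was not tested.

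Same-numbered replicates deviated together (a correlation above 0.1) in 13 of 28 pairs of groups, so the libraries were not treated as pairs. The correlation was 0.45 between NN and TX controls and 0.48 between NN and TX at 1 h. It was -0.40 between NN controls and NN at 1 h. With the replicate block, 3527 genes were called in NN, 4054 in TX, 2732 in both and 1 for the difference, where HORVU3Hr1G061860 had a limma adjusted p of 0.0728. With the numbers of the NN controls crossed in the replicate block, the counts were 3603 in NN and 0 for the difference (1108 at an unadjusted p under 0.05 in limma).

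For the named genes, 161 of 176 alternative values kept direction and call, 14 lost the call of a variety difference, and 1 turned: HvMADS14 in NN was -0.020 without replicate 2 of NN at 1 h and 0.62 without replicate 1. FPKM without read totals give no counting error, and with 2 libraries a group the spread is borrowed across groups and genes.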
